A study of Mus musculus with 7 samples.

Results

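The 5 genes studied here belong to the circadian transcription loop and were followed in mouse liver. They were Arntl (Bmal1), Clock, Npas2, Bhlhe40 (Dec1) and Bhlhe41 (Dec2), chosen by name, as the subunits of the activator and the DEC repressors, and each was read from 1 probe set, the one that carries its symbol. In all, 19939 genes had a probe set that carries their symbol alone, and all 5 were among them once Npas2 was named. The annotation table used here does not name the probe set of Npas2, whose name was taken from the study's supplementary table. The arrays came from male C57/BL6 mice, 9 to 11 weeks old when housing began, that had no genetic or drug treatment. The mice lived under 12 h of light and 12 h of dark, first with food at all hours for 2 weeks and then, for 7 days, with food only in the dark phase (ZT0 is lights on and ZT12 lights off). Livers of 5 mice were collected every 4 h from ZT02 to ZT26, and their RNA was pooled for 1 Mouse Gene 1.0 ST array per time point. ZT26 is ZT02 of the next day, so it is the only clock hour measured in a pair of pools, and no p-value below includes the spread between mice.

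BMAL1 pairs with CLOCK or with its close relative NPAS2, and the pair binds E-box elements and switches on the Per, Cry, Rev-erb and Dec genes. The PER and CRY proteins then hold the pair back, and REV-ERBα and REV-ERBβ (Nr1d1, Nr1d2) repress Arntl, Clock and Npas2 through RORE elements, where ROR receptors activate. DEC1 and DEC2 are bHLH repressors that compete for E-boxes, and their own genes are E-box targets.

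These elements were searched for in RefSeq promoter windows of build GRCm38.p6, which run from 250 bases before to 50 bases after each annotated start. Windows were found for 4 of the 5 genes. Both Arntl stretches that match the RORE, spelled as AAAGT directly followed by AGGTNA and whose letters were written with the Arntl sequence known, are shown because the RORE is the element that REV-ERB and ROR receptors are known to bind at Arntl. The match is in capitals, and both stretches are on the plus strand.

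Arntl, chr7:113207492-113207521: attggtcggAAAGTAGGTTAgtggtgcgac
Arntl, chr7:113207528-113207557: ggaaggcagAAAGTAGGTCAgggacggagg

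Counted from the second of the 2 annotated starts, the first match begins at -10 and the second at 27, and the matches begin 36 bases apart. Both starts lie within the Arntl gene record, 28994 and 29040 bases after its first base. On both strands, this RORE form occurred in 20 of 32851 windows (0.0609%), which belong to 19 genes. The shorter half-site AGGTCA, whose letters lie within the second match, occurred in 16.3% of windows. For Clock, 1 of 3 windows held it. That window belongs to the third start (minus strand), and the match, read as its reverse complement TGACCT, is in capitals.

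Clock, chr5:76303604-76303633: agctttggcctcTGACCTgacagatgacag

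The E-box CACGTG, which occurred in 7.15% of windows, was found in the Bhlhe41 window, with its first base at -153 from the start, on the minus strand. The 250 bases before that start are shown with the E-box in capitals, beside those before the Npas2 start (plus strand), where none of the motifs searched was matched. TTATGTAA and TTACGTAA, the D-box forms bound by DBP, TEF and HLF and by NFIL3, occurred in 0.938% and 0.119% of windows and in none of the windows of these genes.

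Bhlhe41, chr6:145865421-145865670: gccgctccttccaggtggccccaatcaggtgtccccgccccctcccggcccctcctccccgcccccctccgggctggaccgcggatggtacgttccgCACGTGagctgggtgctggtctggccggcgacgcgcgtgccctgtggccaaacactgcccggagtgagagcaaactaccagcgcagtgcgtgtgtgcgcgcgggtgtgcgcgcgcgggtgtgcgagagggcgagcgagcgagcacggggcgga
Npas2, chr1:39194022-39194271: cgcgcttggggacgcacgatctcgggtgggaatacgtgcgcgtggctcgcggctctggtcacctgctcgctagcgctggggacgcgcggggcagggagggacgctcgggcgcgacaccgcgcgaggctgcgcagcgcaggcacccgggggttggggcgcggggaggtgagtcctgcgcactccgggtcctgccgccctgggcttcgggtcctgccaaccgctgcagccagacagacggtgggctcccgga

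Both stretches are rich in G and C, with 73.6% for Bhlhe41 and 74.8% for Npas2. A match of letters is a description of the sequence and was not tested as a binding site. Among the other genes of the loop with a window, CACGTG was matched for Per1, Cry1, Tef and Ciart. It was not matched for Per3, Cry2, Nr1d1, Nr1d2, Rora, Nfil3, Dbp and Hlf. In the same windows AGGTCA was matched for Per1, Nr1d2 and Nfil3, and TTATGTAA for Per3.

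The positive-arm genes were all low at ZT10. Arntl (chr7:113178471-113314126, as the other positions from RefSeq in build GRCm38.p6), which encodes the shared subunit of the activator, had 497 units at ZT02, 165 at ZT06, 39.2 at ZT10, 101 at ZT14, 357 at ZT18, 448 at ZT22 and 490 at ZT26, where units are the deposited log2 values returned to the natural scale. Its mRNA was high from late night to early morning, and the 4 highest arrays (ZT02, ZT26, ZT22 and ZT18) lay closer to their neighbours than the residual SD of 0.38 log2. The highest array was 12.7-fold the lowest. The ZT10 value lay under 43 units, the background level taken from the methods, so the fold is at least 11.6 when counted against that level. A cosine with a period of 24 h had an amplitude, from mean to peak, of 1.80 ± 0.21 log2 (SE), a 12.1-fold range from fitted peak to trough, and a peak at ZT22.8 ± 0.44 h. The adjusted p was 0.0276 in limma's moderated F-test, adjusted by Benjamini and Hochberg over the 12910 named probe sets with a mean above 85 units, of which 4.3% passed at 0.05. The call depended on single arrays, with an adjusted p of 0.0271 without ZT22 and above 0.05, up to 0.0936, without any 1 of the others (limma). The fitted range was 7.32-fold without ZT10 and 17.8-fold without ZT22.

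The Arntl profile departed from the fitted cosine in places, which was not tested on its own. Between ZT02 and ZT06 it changed by -1.59 log2 and between ZT06 and ZT10 by -2.08, then by 1.37 between ZT10 and ZT14 and by 1.82 between ZT14 and ZT18. From ZT18 to ZT22 the change was 0.33, so most of the nightly increase was over by ZT18. The ZT10 array, under background, lay -0.56 log2 from the fitted curve and the ZT22 array -0.57 (observed minus fitted), against a residual SD of 0.38. In these arrays the trough was thus sharper and the top flatter than the cosine has.

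Clock (chr5:76209868-76305603), which encodes a DNA-binding partner of BMAL1, had 1130 units at ZT02, 999 at ZT06, 456 at ZT10, 751 at ZT14, 999 at ZT18, 1101 at ZT22 and 1046 at ZT26. Only ZT10 and ZT14 stood below the rest, and the gaps between the neighbouring arrays ZT02, ZT22, ZT26, ZT06 and ZT18 were all under the residual SD of 0.24 log2. The highest array was 2.48-fold the lowest. The fitted amplitude was 0.53 ± 0.13 log2 (SE) with a peak at ZT23.05 ± 0.95 h, and the adjusted p of 0.117 in limma did not pass. Over all 5040 orders of the arrays, the exact permutation p of the 24 h component was 0.00476, unadjusted, and the smallest that these orders can give is 0.000794. By the same test the p was 0.00317 for Arntl and 0.00794 for Npas2. The cosine took up 72.7% of the variance of Clock and 99.4% of that of Npas2, so this p does not rank the genes by their rhythm. The fitted size rested on 1 array, since without ZT10 the fitted range was 1.47-fold in place of 2.08-fold. In both Clock and Arntl the change between ZT06 and ZT10 was the largest of the 6 steps, at -1.13 log2 for Clock, and 77 of the tested probe sets had a larger one over these hours.

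Npas2 (chr1:39193702-39363240), whose product can replace CLOCK as the partner of BMAL1, had 662 units at ZT02, 147 at ZT06, 29.2 at ZT10, 34.3 at ZT14, 148 at ZT18, 594 at ZT22 and 829 at ZT26. It was high at ZT22, ZT26 and ZT02 and stayed near its low point at both ZT10 and ZT14, where its log2 values of 4.87 and 5.10 were below the median of their arrays. Both values lay under the background of 43 units, so no order is read between them. The highest array was 28.4-fold the lowest and at least 19.3-fold that background. The cosine had an amplitude of 2.56 ± 0.08 log2 (SE), a 34.9-fold range and a peak at ZT0.04 ± 0.13 h, and it took up 99.4% of the variance (limma, adjusted p = 0.00131). None of the 12910 tested probe sets had a larger amplitude, while Arntl stood at place 10, Bhlhe40 at 107 and Clock at 300 of that order, in which the median was 0.091 and the 95th percentile 0.379 log2. With all values under background set to it, an alternative chosen after the data were seen, the amplitude of Npas2 was 2.32 ± 0.09 log2 (SE), its range 24.9-fold and its place 2 (limma, adjusted p = 0.00262). The adjusted p stayed between 0.00378 and 0.0327 when each array was left out in turn (limma). Npas2 was also the member that differed most between both pools of the same clock hour, by 0.32 log2 (ZT26 minus ZT02), against a 95th percentile of 0.341 for this absolute difference over all tested probe sets and 0.11 or less in size for the other 4 genes.

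**Figure D1:**
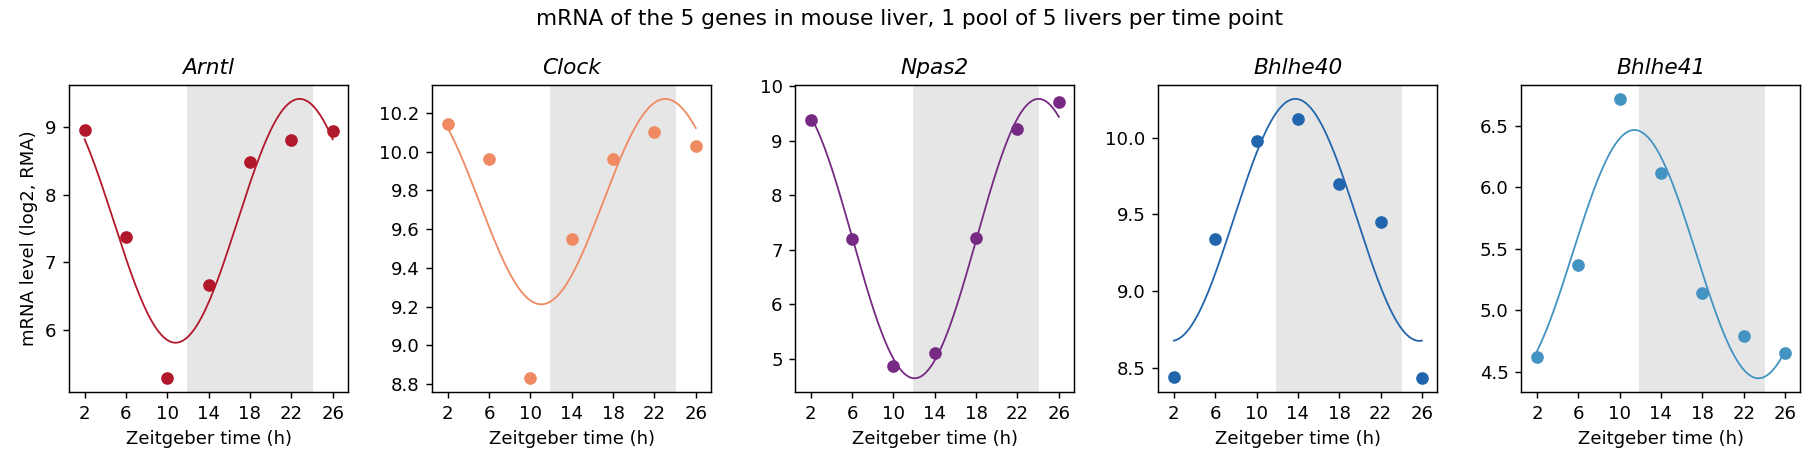
Each panel gives 1 gene, with the log2 level on the vertical axis (a different scale in each panel) and Zeitgeber time in hours on the horizontal axis. Points are the 7 arrays, each 1 pool of 5 livers, the line is the fitted 24 h cosine and grey marks the dark hours. Arntl and Clock are lowest at ZT10 and Npas2 at ZT10 and ZT14, both under background, and Bhlhe40 and Bhlhe41 are highest at ZT14 and ZT10.

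The DEC genes were highest at ZT10 or ZT14. Bhlhe40 (chr6:108660629-108666925), the gene of DEC1, had 348 units at ZT02, 648 at ZT06, 1009 at ZT10, 1113 at ZT14, 829 at ZT18, 698 at ZT22 and 344 at ZT26. It was high around lights off, and both morning pools (ZT02 and ZT26) were the lowest and differed by only -0.02 log2. The highest array was 3.24-fold the lowest. The amplitude was 0.79 ± 0.13 log2 (SE) and the peak fell at ZT13.76 ± 0.69 h (limma, adjusted p = 0.0476; exact permutation p = 0.0238, unadjusted). The call was near the threshold, since it passed only without ZT22 (adjusted p = 0.0237, peak at ZT12.86) and not without any 1 of the other arrays, where the adjusted p reached 0.153 (limma). The decline from the peak was slow through the night, with -0.42 log2 between ZT14 and ZT18 and -0.25 between ZT18 and ZT22, and was followed by a step of -1.02 between ZT22 and ZT26, which 20 tested probe sets exceeded in size over these hours.

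Bhlhe41 (chr6:145858243-145865420), the gene of DEC2, had 24.6 units at ZT02, 41.4 at ZT06, 106 at ZT10, 69.5 at ZT14, 35.2 at ZT18, 27.6 at ZT22 and 25.2 at ZT26. A single array, ZT10, was the highest, and ZT22, ZT26 and ZT02 were the lowest, where neighbours differed by less than the residual SD of 0.22 log2. Its mean of 47.0 units did not reach the 85 units that the filter asks for, and 6 of its 7 values were below the median of their array, so it was fitted without the filter, where 0.226% of 23411 named probe sets passed. All arrays but ZT10 and ZT14 lay under the background of 43 units. The highest array was 4.28-fold the lowest and at least 2.46-fold that background, the amplitude was 1.01 ± 0.12 log2 (SE) and the peak fell at ZT11.43 ± 0.47 h. The adjusted p was 0.0706 in limma and the exact permutation p was 0.00317, unadjusted, and both use the values under background. With values under background set to it, the amplitude was 0.56 ± 0.18 log2 (SE), the peak ZT11.23 ± 1.24 h and the adjusted p 0.461 (limma). In all, 4 of the 5 genes passed the level filter and 3 of these passed the test (Arntl, Npas2 and Bhlhe40). Among all 23411 named probe sets, 12910 passed the level filter, and 4.3% of those passed the test. Without the level filter, the setting used for Bhlhe41, Npas2 passed (limma, adjusted p = 0.00823) and Arntl (0.0731) and Bhlhe40 (0.11) did not. None of these 3 passed when the cosine was fitted on the natural scale (limma, adjusted p = 0.06 for Arntl, 0.108 for Npas2 and 0.0758 for Bhlhe40) or by the ordinary F-test without moderation (0.205, 0.0799 and 0.237). By a plain ratio, the highest array was at least 2-fold the lowest for each of the 5 genes, as it was for 4.38% of the tested probe sets.

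**Figure D2:**
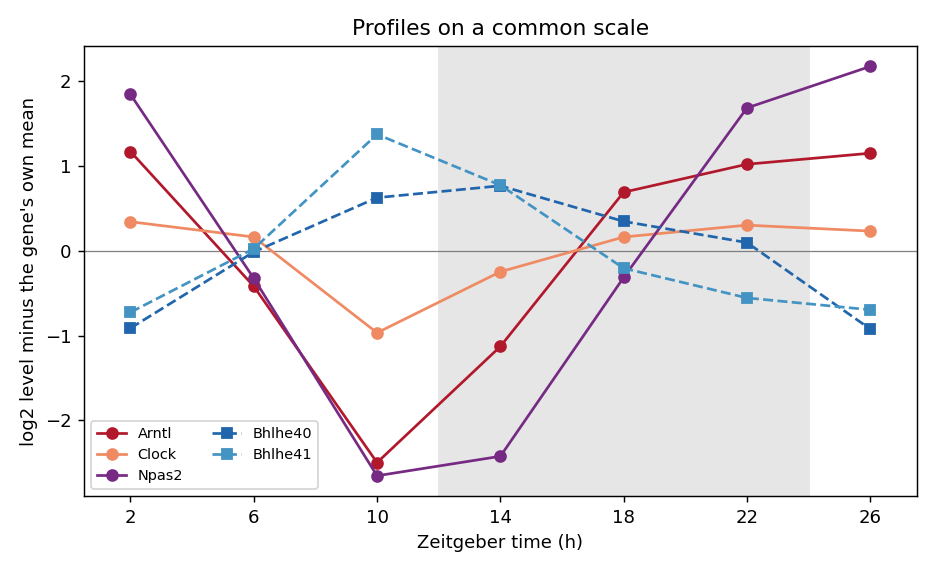
Each line is 1 gene over the 7 arrays, as the log2 level minus that gene's own mean (vertical axis) against Zeitgeber time in hours (horizontal axis), with the dark hours in grey. Arntl, Clock and Npas2 (circles) are low at ZT10, where Bhlhe40 and Bhlhe41 (squares, dashed) are above their means, and Npas2 reaches -2.42 at ZT14, when Arntl is at -1.13.

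Timing and size were then set against each other in the 10 pairs of these genes. For each pair, the log2 difference by array was tested for a 24 h component with an exact permutation test, unadjusted and chosen after the values were seen, and the peak gap is given with its SE and a 95% interval that treats both fits as independent. Arntl and Npas2 had peaks 1.24 ± 0.46 h apart, with Arntl earlier (interval 0.13 to 2.34 h), and their log2 difference had a 24 h component with an exact permutation p of 0.0262. This p was 0.0675 with values under background set to it. On each gene's own mean, Arntl exceeded Npas2 by 1.29 log2 at ZT14 and by 1.01 at ZT18, and it was below Npas2 by -0.67 at ZT22, -0.68 at ZT02 and -1.02 at ZT26. With values under background set to it, these differences were 1.08 at ZT14, 1.12 at ZT18, -0.56 at ZT22, -0.57 at ZT02 and -0.91 at ZT26. At ZT14 Arntl was above background and Npas2 was not, and Npas2 then changed by 2.01 log2 between ZT18 and ZT22, where Arntl changed by 0.33.

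Between Arntl and Clock the peak gap was 0.25 ± 1.05 h (SE), Clock later, with an interval from -2.28 to 2.78 h that includes 0. Their amplitudes differed 3.42-fold, and 5.19-fold without ZT10 (exact permutation p = 0.00952 for their log2 difference). For the exchangeable partners Npas2 and Clock, the amplitude of Clock was 0.206 of that of Npas2, or 0.111 without ZT10, and their log2 difference ran from -2.18 at ZT14 to 1.94 at ZT26 (Npas2 minus Clock, each centred on its own mean; exact permutation p = 0.00317, or 0.00794 with values under background set to it). Their peaks were 0.99 ± 0.96 h apart with an interval of -1.33 to 3.31 h.

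The DEC genes peaked 2.32 ± 0.84 h apart, Bhlhe41 before Bhlhe40 (interval 0.27 to 4.38 h), while the 24 h component of their log2 difference had an exact permutation p of 0.0857, or 0.247 with values under background set to it. By the deposited values, their difference was largest at ZT10, where Bhlhe41 stood higher (-0.75, Bhlhe40 minus Bhlhe41). Bhlhe40 stood higher at ZT18 and ZT22 (0.55 and 0.65). With values under background set to it, these differences were -0.38 at ZT10, 0.63 at ZT18 and 0.38 at ZT22. The largest negative ones were then at ZT02 and ZT26 (-0.62 and -0.64), so the hours at which Bhlhe41 stood higher depend on values under background. Arntl and Bhlhe41 were nearly in antiphase, with peaks 11.37 ± 0.64 h apart, and Npas2 and Bhlhe41 were 11.39 ± 0.49 h apart. All gaps of Bhlhe41 rest on a profile with 5 arrays under background. With those values set to background its peak was at ZT11.23 ± 1.24 h (SE), so these SEs and intervals are too narrow, and the gaps were not computed again. Bhlhe40 was 9.05 ± 0.82 h from Arntl and 10.28 ± 0.70 h from Npas2, with intervals of 7.07 to 11.02 h and 8.59 to 11.98 h. The second interval ends just short of 12 h. Without ZT22 the peak of Bhlhe40 was at ZT12.86 and that of Npas2 at ZT23.94, which lie further apart. The intervals were not computed again for that setting, so antiphase of Npas2 and Bhlhe40 is not settled.

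**Figure D3:**
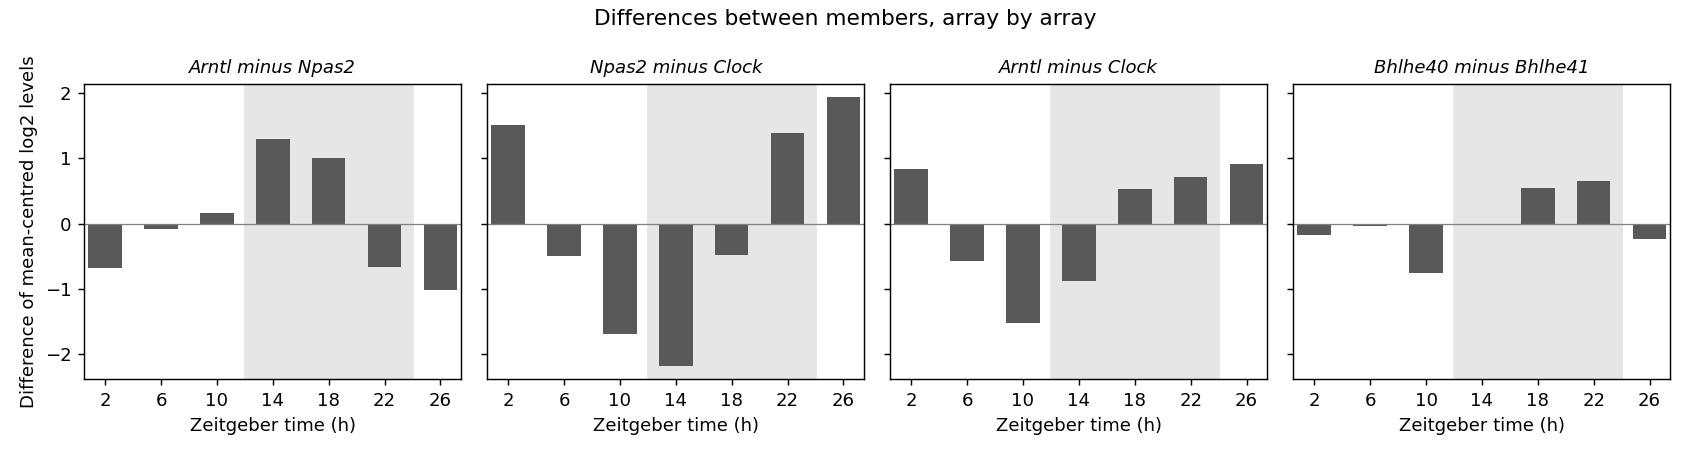
Bars give, for 4 pairs, the difference between the mean-centred log2 levels of both genes (first minus second, vertical axis) at each Zeitgeber time in hours (horizontal axis), with dark hours in grey. Arntl minus Npas2 is at 1.29 at ZT14 and -1.02 at ZT26, and Npas2 minus Clock spans -2.18 at ZT14 to 1.94 at ZT26.

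The genes whose mean-centred profiles were nearest to each member were found by the root mean square distance over the 7 arrays, among tested probe sets with a single symbol. Nearest to Arntl were Chka (0.26 log2), the choline kinase alpha gene, Tubb2a (0.29), a beta-tubulin gene, and Pdk4 (0.46), which encodes a kinase that shuts down pyruvate dehydrogenase. Chka had 1192 units at ZT02, 445.7 at ZT06, 151 at ZT10, 338 at ZT14, 819 at ZT18, 1094 at ZT22 and 1295 at ZT26, with a fitted peak at ZT22.88. It was thus lowest at ZT10 and high from ZT18 to ZT26, as Arntl was. Nearest to the mirror image of Arntl were Dbp (0.31), a PAR bZIP activator gene, Rgs16 (0.51), a regulator of G protein signalling, and Lipg (0.55), which encodes endothelial lipase, and the same distance for Bhlhe41 was 0.58. Dbp had 136.5 units at ZT02, 641 at ZT06, 2161 at ZT10, 970.4 at ZT14, 228 at ZT18, 151 at ZT22 and 112 at ZT26.

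For Clock the nearest genes were Gldc (0.07), a glycine cleavage enzyme, Pde9a (0.09), a cyclic GMP phosphodiesterase, and Lrfn3 (0.11), all with ZT10 as the lowest array. Their adjusted p-values of 0.0717, 0.124 and 0.243 in limma did not pass either. The distances were longer for Npas2, for which the nearest were Arntl (0.82), Loxl4 (0.88), a lysyl oxidase, and Pdk4 (0.91), and Loxl4 had the same fitted peak of ZT0.04 with an amplitude of 1.36 log2. Nearest to Bhlhe40 were Kcnk5 (0.17), a potassium channel gene, St3gal5 (0.20), the GM3 synthase gene, and Inhbe (0.22), an inhibin beta subunit gene. For Bhlhe41 they were Coq10b (0.09), Gdap10 (0.17) and Tef (0.21), a PAR bZIP gene, and Bhlhe40 lay 0.44 away. All distances use the deposited values, with 5 arrays of Bhlhe41 under background, and were not computed with those set to it.

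The other genes of the loop were counted from a list of 14, of which 13 had a probe set of a single symbol and all 13 passed the level filter. The test was passed by 10 of 13, where 4.3% of all tested probe sets passed, with a median amplitude of 1.17 log2 over the list against 0.091 over all tested probe sets. Among those that passed, the largest amplitudes were those of Nr1d1 (amplitude 2.38 log2, peak ZT7.18), the REV-ERBα gene, Ciart (2.26, ZT13.03), a repressor of the activator, and Dbp (2.13, ZT10.91). They were followed by Per2 (1.53, ZT15.13), Per3 (1.51, ZT12.6), Nr1d2 (1.43, ZT9.47), the REV-ERBβ gene, Cry1 (1.17, ZT19.47) and Tef (1.08, ZT12.32). Among the genes named here, Nr1d1 and Nr1d2 had fitted peaks before the trough of Arntl fitted at ZT10.8. Dbp, Bhlhe41 (not past the test), Tef, Per3, Ciart, Bhlhe40 and Per2 followed in order of fitted peak, and Cry1 came last before the Arntl peak. Some neighbours lay closer than their SEs, such as Dbp (SE 0.35 h) and the Arntl trough, or Tef (0.5 h) and Per3 (0.6 h), so their order is not settled. Nfil3, a D-box repressor gene named after its values were seen, was at ZT23.1, near Arntl and Clock. Per1 had an amplitude of 1.17 log2 and did not pass (adjusted p = 0.0786), nor did Cry2 (0.211) and Rora (0.563), all by limma.

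**Figure D4:**
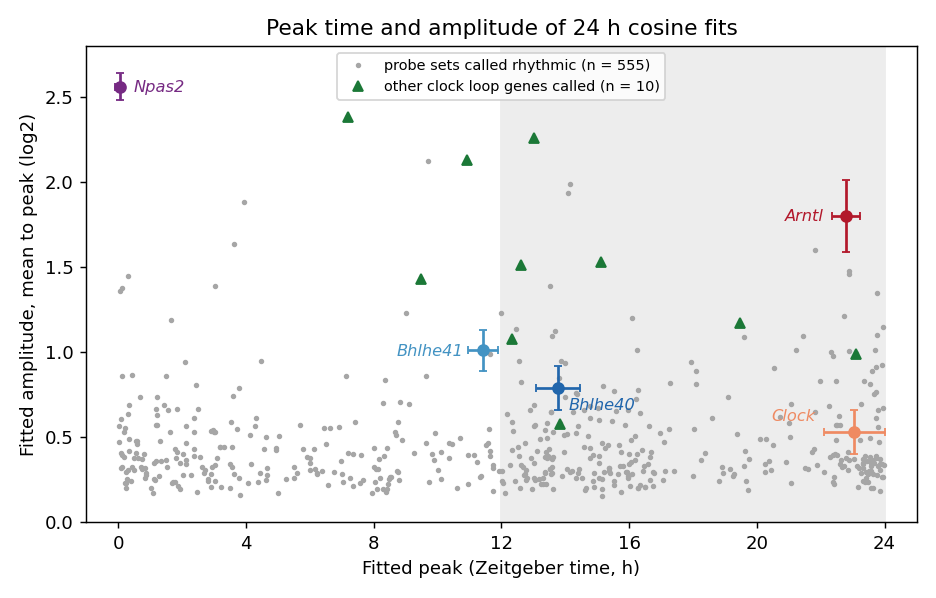
Fitted amplitude from mean to peak in log2 (vertical axis) against fitted peak in Zeitgeber hours (horizontal axis, dark hours in grey). Grey dots are the 555 probe sets that passed the test, green triangles the 10 other loop genes that passed, and coloured points the 5 genes with SE bars, of which Clock and Bhlhe41 did not pass. Npas2 is at the top left at 2.56, and Arntl at 1.80 and Clock at 0.53 share the hours near ZT23.

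The relatives of these genes were counted beside the 4.3% of all tested probe sets that passed. For the counts at an unadjusted p under 0.05 in limma, the background was 3272 of the 12910 tested probe sets. Of 16 other bHLH-PAS and coactivator genes, 7 passed the level filter and 0 passed the test in limma, where 2 had an unadjusted p under 0.05, and their median amplitude was 0.0833 log2. Arntl2, the paralogue of Arntl, was below the filter and its highest array was 1.02-fold its lowest. Of 14 Hes, Hey and Id genes, 9 were tested, 5 had an unadjusted p under 0.05 in limma and 1 passed, Hes6 (0.34 log2, peak ZT16.0), a Notch-pathway relative. Of 16 genes for kinases, ligases and other enzymes that act on clock proteins, 12 were tested, 2 had an unadjusted p under 0.05 in limma and 1 passed, Prkaa2 (0.19 log2, ZT13.61), an AMPK catalytic subunit gene.

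Whole liver holds several cell types, and in such bulk RNA fewer cells of a type and less RNA per cell cannot be told apart. The array medians lay between 6.37 and 6.40 log2. The 7 hepatocyte markers summed to between 96288 units at ZT10 and 99642 at ZT18, a 1.03-fold range, and 0 of 7 passed limma's test. Their means, from 11100 to 16700 units, are near the highest value on any array (14.48 log2), and whether changes are compressed there was not tested. Kupffer cell markers moved in the hours of Arntl and Npas2. Their sum ran from 5570 units at ZT10 to 8784 at ZT26, a 1.58-fold range over 10 genes, and 6 of the 9 tested passed, against 4.3% of all tested probe sets, with peaks between ZT22.88 and ZT0.56 (0.41 log2 for Lyz2 at most). The sums of the cholangiocyte, lymphocyte and stellate cell markers were also lowest at ZT10, with ranges of 1.7-fold, 1.45-fold and 1.2-fold. That of the sinusoidal endothelial markers was lowest at ZT02 (1.3-fold range). Alas2, the only erythroid marker measured, was lowest at ZT18 (1.29-fold). The stellate sum is mostly Dcn (mean 5000 units). Of the 4 cholangiocyte markers only Sox9 (mean 343 units) passed the level filter, so that sum is mostly Sox9. For lymphocytes 2 of 6 passed it, and their sum was 341 units at both ZT10 and ZT14. The part of these cells in the profiles of the 5 genes was not tested.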

How the data were processed

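The authors hybridised 1 pool of liver RNA per time point (500 ng from each of 5 livers) to Affymetrix Mouse Gene 1.0 ST arrays and deposited log2 values. The submitters' processing notes name RMA and Affymetrix Expression Console (version 1.1.2637.26569), so the values were already corrected for background, normalized across arrays and summarised per probe set, and scanner signals were not used here. Of 35556 probe sets, 21789 carry 1 symbol in the platform annotation, 1621 several and 12146 are not named. The probe set of Npas2 was named from the study's supplementary table, from which no value was taken, and was added to those tested.

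A cosine and sine of 24 h were fitted by limma (version 3.58.1, R 4.3.3), with 4 residual degrees of freedom, and tested jointly by the moderated F-test, with Benjamini-Hochberg adjustment over named probe sets with a mean above 85 units, the level the study's methods take as expressed. The scripts were tested on simulated data. Bhlhe41 was fitted without that filter. All 5 genes, the 3 nearest genes of each and list members past the test (at most 8 a list) were named. The members, lists and markers were chosen with earlier results of these data known. Each time point has 1 array of pooled livers, so p-values set the 24 h component against the scatter of the pools around it. The methods' background of 43 units was used as a floor in an alternative added after the data were seen. The lower background that the paper gives for its supplementary data was not tried. The number of arrays limits the precision. Sequences are from RefSeq (GRCm38.p6). The alternatives tried were other filters, scales, normalizations and tests, and each array left out. Profiling of Pol II and histone marks was not analysed here.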

Additional observations from a re-analysis of the deposited data

How the results depend on the processing

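The count of 555 probe sets past the test depended on the setting more than the members' peak times did. It was 53 with no level filter, 55 on the natural scale, 44 with 24 h and 12 h terms together, 967 with arrays shifted to a common median, and 0 by the ordinary F-test and by Fisher's test for one period, against 3272 with an unadjusted p under 0.05 in limma. With each array left out it ranged from 13 (without ZT02) to 284 (without ZT22), and every such fit has fewer samples. For Arntl the adjusted p was 0.0731 with no filter, 0.205 by the ordinary F-test, 0.06 on the natural scale and 0.359 by Fisher's test, and 0.0271 to 0.0936 with arrays left out. For Npas2 it was 0.0799 by the ordinary F-test, 0.108 on the natural scale (peak at ZT0.37) and 0.245 by Fisher's test, and 0.00378 to 0.0327 with arrays left out. For Bhlhe40 it was 0.11 with no filter, 0.237 by the ordinary F-test, 0.0758 on the natural scale, 0.116 with the 12 h terms and 0.394 by Fisher's test, and 0.0237 to 0.153 with arrays left out. For Clock it was 0.0916 to 0.235 with arrays left out, and the exact permutation p of 0.00476 is unadjusted. For Bhlhe41, not past the test in the report, it was 0.0187 with a common median and 0.0419 after quantile normalization, 0.113 to 0.228 with arrays left out, and 0.00317 by the exact permutation test, unadjusted. The cause was not tested, other than the smaller or larger number of probe sets or arrays that a setting holds. With arrays left out, fitted peaks stayed within ZT22.52 to ZT23.24 for Arntl, ZT12.86 to ZT14.3 for Bhlhe40 and ZT11.01 to ZT11.87 for Bhlhe41. That of Clock ran from ZT22.04 (without ZT06) to just past lights on at ZT0.08 (without ZT10). With values under 43 units set to 43, an alternative chosen after the data were seen, the count was 555 and no call on the 5 genes changed. No direction was reversed in any setting run. Each gene has 1 probe set, so another probe set could not be tried, and no paired analysis was possible because each time point has 1 array. Sampling every 4 h limits the timing, and values under background (ZT10 of Arntl, ZT10 and ZT14 of Npas2, and 5 arrays of Bhlhe41) limit the folds.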
